A study of Mus musculus with 6 samples.

Results

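The junction genes examined here are the claudins, connexins, cadherins, catenins and zonula occludens scaffolds of the mouse, with 9 further junction genes added by name (Pcdh1, Pcdh12, Jam2, Jam3, F11r, Esam, Ocln, Cgn and Cgnl1). They were picked by gene symbol, a rule that uses no measured value, though the families were chosen with earlier results of these data known. The rule found 95 of the 24421 symbols in the deposited files. These were 32 claudins, 19 connexins, 23 cadherins, 2 protocadherins, 9 genes with a catenin symbol, 4 immunoglobulin-type adhesion genes of the junctional adhesion molecule (JAM) family, occludin and 5 scaffolds. Of the 95, 34 had no count in any library, 27 had too few counts to be tested, and 34 were tested.

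The cells were LSECs (liver sinusoidal endothelial cells) taken from mice, the lining of the liver's capillaries, of a genotype labelled wild. All 6 samples shared the same isolation: hepatocytes were pelleted at low speed, dead cells and erythrocytes were spun out on Percoll, and the cells were then selected by magnetic beads against CD146. The labels describe for the stimulated cells a night on collagen I, 6 h without serum and then 8 h of hydrostatic pressure cycling between 101 and 135 kPa at 0.01 Hz. The 3 pressure samples carry that treatment. The 3 control samples are labelled as controls, and the 6 h without serum are recorded for them as well. The duration and pressure of the control cultures, the strain and age of the mice, and whether replicates are different animals or cultures, are not stated in the sources used here. The p-values therefore set the difference between groups only against the spread of these samples, and that spread may be technical. The comparison asks which junction genes differed in RNA level between stimulated and control cells.

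The libraries held between 12922959 and 18655749 counts. All carried a single batch label. Pressure library 3, the smallest, stood apart from the rest of its group: its log CPM correlated with theirs at 0.9868 and 0.9894 across genes, against 0.9941 between those 2. The cell type in the labels was checked against marker lists. All 11 markers of sinusoidal endothelium were detected, with a summed level of 4417 to 4483 TMM-scaled CPM (counts relative to library size) in controls and 2521 to 2801 CPM under pressure. Of the 11, 9 fell in the test described below, beside 35.1% of all genes tested. The 8 markers of endothelium in general summed to 3124 to 3204 CPM in controls and 2762 to 2973 CPM under pressure. Macrophage markers were abundant as well, at 5617 to 6176 CPM and 5359 to 5819 CPM, and their part in the junction values was not tested. In such bulk samples, fewer cells of a type and less RNA per cell cannot be told apart.

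Cells in a sheet are held together by several kinds of contact. In adherens junctions, cadherins bind each other across the gap between cells, and catenins tie their tails to actin. In tight junctions, claudins and occludin form the strands that limit passage between cells, JAM proteins lie beside them, and the zonula occludens proteins and cingulins are the scaffolds beneath. Gap junctions are channels made of connexins through which small molecules and ions pass from cell to cell. Sinusoidal endothelium is fenestrated and leaky, and its junctions are known to be sparser than those of arteries, where Cldn5 and the connexins Gja4 and Gja5 are typical.

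Of the 34 junction genes tested, 16 rose under pressure and 7 fell at an adjusted p under 0.05 in edgeR's quasi-likelihood test, and 11 did not pass. Of the 23 called, Cldn15 and Gja5 passed the filter on low counts only through the group where they were higher. Among all 12892 genes tested, 33.7% rose, 35.1% fell and 68.8% passed in either direction. The 67.6% of junction genes that passed was therefore near the background, and that share is not a result about them. The median log2 fold change (pressure over control) was 0.24 for the junction genes and -0.015 for all genes tested, and the median absolute change was 0.62 and 0.54. At least 2-fold, 6 junction genes rose and 4 fell, where the background was 9.64% of all genes tested rising and 13.7% falling. The 3 pressure libraries lay wholly outside the range of the controls for 22 junction genes, 15 higher and 7 lower, against 71.9% of all genes. These counts move with the scaling of the libraries. With library totals in place of TMM factors (trimmed mean of M-values, the main scaling), the median change of all genes shifted by -0.21, the share of all calls that were higher went from 49.0% to 34.7%, and the junction genes split into 10 higher and 10 lower. Of the 23 junction genes called, 17 kept their call and direction under all 4 scalings tried, 10 of them higher and 7 lower.

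**Figure D1:**
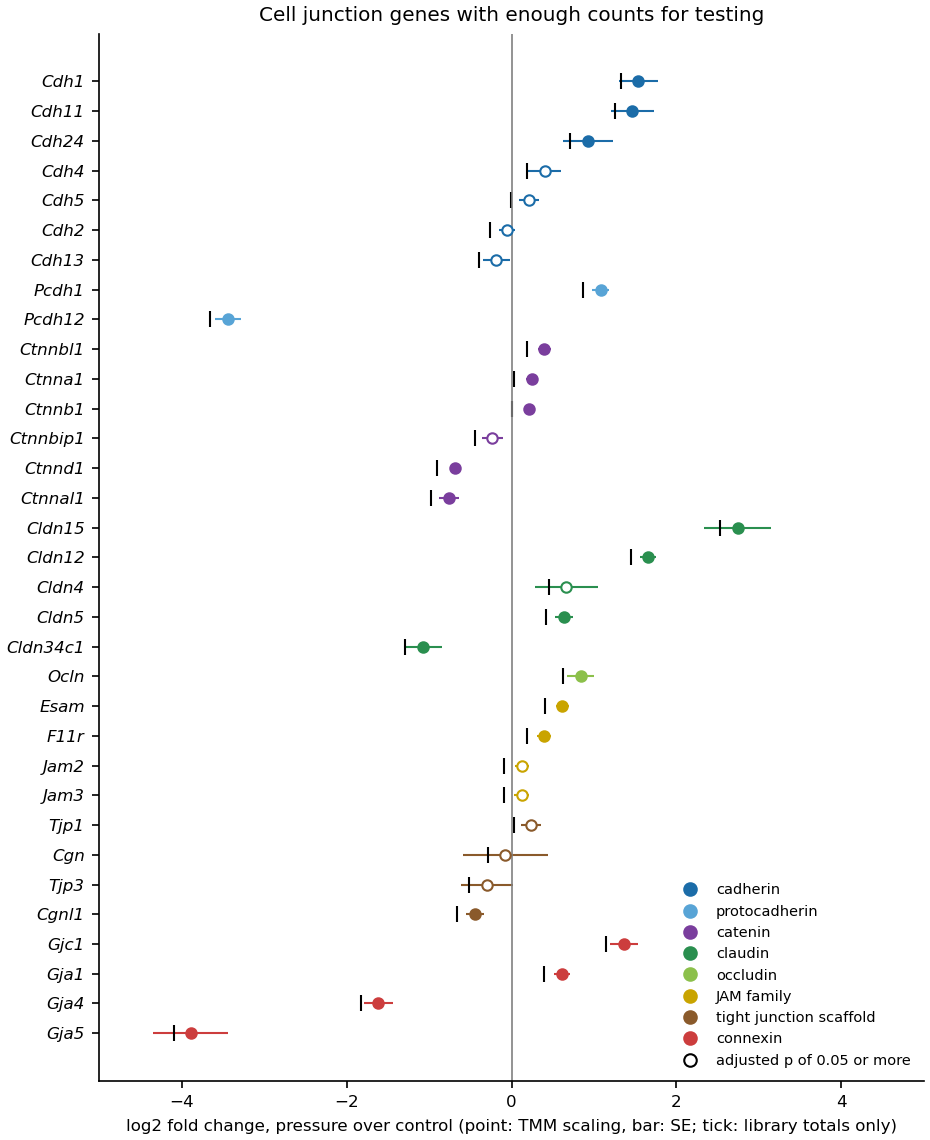
Log2 fold change of 33 tested junction genes (horizontal axis, pressure over control), coloured by family. Points show the TMM scaling with bars of 1 standard error, open points did not pass the test, and black ticks give the change with library totals only. Gja5 (-3.89) and Pcdh12 (-3.44) lie farthest to the left and Cldn15 (2.74) farthest to the right.

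**Figure D2:**
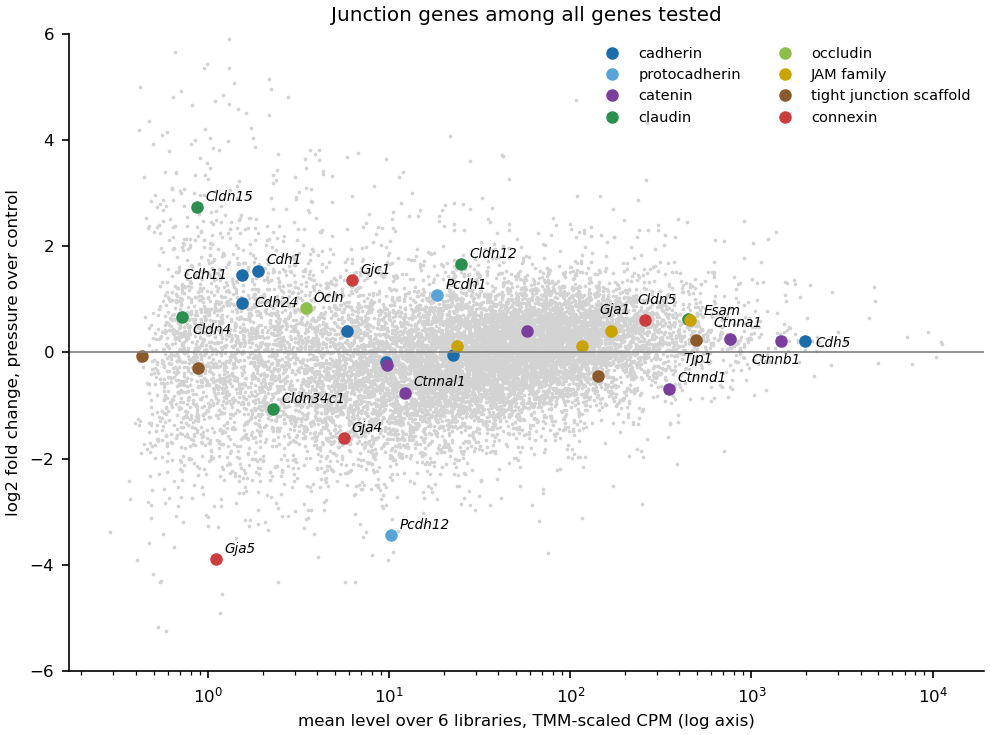
Mean level over the 6 libraries (horizontal log axis, TMM-scaled CPM) against log2 fold change (vertical axis) for all genes tested in grey and junction genes in colour by family; 2 genes lie outside the plotted range. The junction genes above 100 CPM lie between -0.68 (Ctnnd1) and 0.63 (Cldn5), and those called with at least a 2-fold change are all below 100 CPM.

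Among the cadherins, 3 scarce genes rose and the endothelial gene did not pass the test. Cdh5 (VE-cadherin, the cadherin of endothelial adherens junctions, chromosome 8, 104101625 to 104144511 in GRCm38, plus strand) made up 98.8% of the cadherin signal per kilobase of exon in both groups. Its level was 1956, 1644 and 1891 CPM in controls 1 to 3 and 2401, 2307 and 1661 CPM in pressure libraries 1 to 3. Pressure libraries 1 and 2 were above every control and the last was inside the control range, so the groups overlapped. The log2 fold change was 0.21 ± 0.13 (SE) with an adjusted p of 0.150 in edgeR. Without pressure library 3 it was 0.37 and passed the test, and with library totals it was -0.0026.

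Cdh2 (N-cadherin) stood at 23.3, 22.0 and 23.3 CPM in controls and 20.3, 22.0 and 23.99 CPM under pressure, with a log2 fold change of -0.05 ± 0.099. Cdh13 (T-cadherin, which lacks the usual cytoplasmic tail) stood at 10.04, 10.1 and 10.8 CPM in controls and 10.4, 9.91 and 6.55 CPM under pressure, and pressure library 3 was the low one. Neither passed the test (adjusted p = 0.635 and 0.329 in edgeR), and with library totals both passed as lower (-0.27 and -0.40). Cdh4 (R-cadherin) went from 5.10 ± 0.345 to 6.65 ± 1.85 CPM (SD, n = 3), with an adjusted p of 0.0907 that became 0.00121 without pressure library 3.

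Cdh1 (E-cadherin, the epithelial cadherin) rose from 0.799, 0.960 and 1.19 CPM to 2.99, 3.04 and 2.37 CPM, and every pressure library was above every control. The log2 fold change was 1.54 ± 0.24 (edgeR adjusted p = 1.88e-04), from 16 to 18.33 counts per control library and 29 to 50 counts per pressure library. Cdh11, a cadherin of mesenchymal cells, rose from 0.799, 0.960 and 0.661 CPM to 1.81, 2.61 and 2.37 CPM, a log2 fold change of 1.46 ± 0.26 (edgeR adjusted p = 5.44e-04). Cdh24 went from 1.07 ± 0.120 to 2.00 ± 0.751 CPM. It passed at 0.0190, but its pressure library 3 was among the controls and the call was lost in 6 of the alternatives tried. Epithelial markers moved in the same direction as Cdh1. Of 10 on the list, which includes Cdh1, 6 were tested and all 6 rose (5 with library totals), beside 33.7% of all genes tested. Epcam, at 0.587 and 1.76 CPM, passed the filter only through the pressure libraries. The summed level of the list went from 11.5 to 11.8 CPM in controls to 20.4 to 24.2 CPM under pressure. Hepatocyte markers summed to 7.36 to 10.3 CPM and 14.5 to 18.5 CPM, with Tat at 0 in every library. Of the 4 tested, Alb rose from 6.40 to 12.1 CPM. Apoa1 and Serpina1c were called as well, but under 3 control libraries reached the minimum level of the filter for either, and the call of Serpina1c was lost without the filter, with upper-quartile factors, with library totals and without pressure library 3. The stellate cell and fibroblast list, beside which Cdh11 is read, summed to 157 to 170.3 CPM and 172 to 191 CPM. Of its 9 tested genes, 1 rose and 3 fell, beside 33.7% and 35.1% of all genes tested. Ngfr, counted as falling, passed the filter only through the controls. With library totals, none of the 9 rose and 5 fell. The part of these cells in the Cdh1 and Cdh11 values was not tested.

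The 2 protocadherins moved in opposite directions. Pcdh12, also known as VE-cadherin-2 and found in endothelium (chromosome 18, 38267089 to 38284402, minus strand), read 18.1, 20.0 and 18.4 CPM in controls and 1.31, 1.95 and 1.97 CPM under pressure. No pressure library came near a control. The fall was 10.9-fold, a log2 fold change of -3.44 ± 0.16 (edgeR adjusted p = 9.14e-08), from 1016 counts summed over controls to 77 over pressure libraries, with a 95% interval of the ratio from 8.68 to 13.99 that covers counting error only. Pcdh1 (chromosome 18, 38185914 to 38212053, minus strand), known from epithelia, read 12.8, 11.3 and 11.2 CPM in controls and 24.7, 26.2 and 23.9 CPM under pressure, and all pressure libraries were above the controls. Its log2 fold change was 1.08 ± 0.10 (edgeR adjusted p = 6.30e-06). Per kilobase of all annotated exons, Pcdh12 was 2.34 ± 0.255 times Pcdh1 in controls and 0.101 ± 0.0220 times Pcdh1 under pressure. The order in controls depends on the length used. With principal transcripts, chosen after seeing the data, Pcdh12 and Pcdh1 overlapped in spread in controls (3.40 ± 0.175 and 3.02 ± 0.225 CPM per kilobase). Under pressure they stood apart, at 0.314 ± 0.0673 and 6.39 ± 0.297.

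Among the catenins, the 2 that tie cadherins to actin were slightly higher and the catenin that holds cadherins at the membrane was lower. Ctnnb1 (beta-catenin, which also acts in the nucleus in Wnt signalling) stood at 1357, 1332 and 1336 CPM in controls and 1557, 1605 and 1515 CPM under pressure, a log2 fold change of 0.22 ± 0.058 (edgeR adjusted p = 0.00630). Ctnna1 (alpha-catenin, the link to actin) stood at 707, 679 and 709.9 CPM and at 879, 836 and 771 CPM, a log2 fold change of 0.25 ± 0.068 (edgeR adjusted p = 0.00827). For both genes the groups did not overlap. Both calls rest on the scaling: with upper-quartile factors the adjusted p was 0.147 and 0.0942, and with library totals the changes were 0.0034 and 0.03. Beta-catenin shares 14.62% of its exonic bases with Ulk4 on the opposite strand, and the strand setting of the counting is not given.

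Ctnnd1 (p120-catenin, which binds the cadherin tail next to the membrane and keeps cadherin from being taken up; chromosome 2, 84600071 to 84650765, minus strand) fell from 429, 418 and 446 CPM to 268, 278 and 258 CPM. All pressure libraries were below all controls, and the log2 fold change was -0.68 ± 0.068 (edgeR adjusted p = 8.23e-06). The call held under all 4 scalings. The ratio of Ctnnd1 to Ctnnb1 per kilobase, which does not depend on scaling, was 0.224, 0.222 and 0.237 in controls and 0.122, 0.123 and 0.121 under pressure. Its ratio to Cdh5 was 0.136 ± 0.00992 and 0.0742 ± 0.0132. Its share of the catenin signal went from 13.1% ± 0.339 to 7.41% ± 0.127. The annotation has another gene model, Gm28635, on the same strand over 61.24% of the exonic bases of Ctnnd1. That model is not among the symbols of the files.

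Ctnnal1 (alpha-catulin, a relative of alpha-catenin) fell from 15.4 ± 1.16 to 9.08 ± 1.12 CPM, a log2 fold change of -0.76 ± 0.12 (edgeR adjusted p = 2.96e-04), with no overlap between the groups. Ctnnbl1, which carries the catenin name but is known as a splicing-associated protein, rose from 49.4 ± 2.19 to 65.2 ± 4.004 CPM, a change of 0.40 ± 0.083 that did not pass with library totals. Ctnnbip1, which blocks beta-catenin from its DNA-binding partners, was at 10.5 ± 0.822 and 8.92 ± 0.783 CPM (adjusted p = 0.117 in edgeR), and was called lower with upper-quartile factors and with library totals. Ctnnd2 had 1 count in all 6 libraries together, and the neuronal and cardiac alpha-catenins Ctnna2 and Ctnna3 had none.

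In the tight junction membrane, Cldn5, Cldn12, Ocln, Esam and F11r rose, Cldn34c1 fell, and the scarce Cldn15 had more counts under pressure. Cldn5, the claudin of endothelial barriers (chromosome 16, 18776847 to 18778262, plus strand), stood at 339, 382 and 326 CPM in controls and 523, 465 and 634 CPM under pressure. Every pressure library was above every control, pressure library 3 highest of all, and the log2 fold change was 0.63 ± 0.11 (edgeR adjusted p = 4.58e-04). Its ratio to Cdh5 per kilobase was 0.514, 0.689 and 0.511 in controls and 0.647, 0.598 and 1.13 under pressure, so relative to Cdh5 the groups overlapped and pressure library 3 stood above the rest. The list of arterial and continuous endothelium, to which Cldn5 and Gja5 belong, summed to 467 to 522 CPM and 908 to 1052 CPM. Of its 8 tested genes, 5 rose (3 with library totals) and 1, Gja5, fell, beside 33.7% and 35.1% of all genes tested.

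Cldn12 (chromosome 5, 5489537 to 5514958, minus strand), a claudin also known from brain endothelium, rose from 10.9, 12.2 and 12.8 CPM to 37.8, 37.6 and 37.8 CPM. The pressure libraries differed by less than the controls did, and the log2 fold change was 1.66 ± 0.097 (edgeR adjusted p = 3.15e-07), 3.16-fold. It was the second claudin per kilobase, but with 2.83 ± 0.225 CPM per kilobase against 246 ± 20.6 for Cldn5 in controls and 8.92 ± 0.0322 against 382 ± 60.9 under pressure. Its share of the claudin signal went from 1.14% to 2.30%, while that of Cldn5 went from 98.3% to 97.1%. Cldn15 (chromosome 5, 136966616 to 136975858, plus strand), known for the sodium-permeable junctions of the gut, had 4 counts in each control and 34, 22 and 13 counts under pressure. It passed the filter on low counts only through the pressure libraries. Fitted with every gene that had a count and no filter, its log2 fold change was 2.72 (edgeR adjusted p = 2.34e-05). Cldn4, an epithelial claudin, was at 0.573 ± 0.194 and 0.866 ± 0.325 CPM, with groups that overlapped and an adjusted p of 0.146 in edgeR.

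Cldn34c1 read 3.00, 2.67 and 3.70 CPM in controls and 1.62, 1.58 and 1.15 CPM under pressure, a log2 fold change of -1.07 ± 0.23 (edgeR adjusted p = 0.00158). It belongs to a cluster of similar genes on the X chromosome and has fractional counts, so its value is uncertain. Ocln (occludin, a strand protein next to the claudins) rose from 2.45, 2.72 and 2.25 CPM to 4.24, 4.80 and 4.26 CPM. Its groups did not overlap, and the log2 fold change was 0.84 ± 0.17 (edgeR adjusted p = 0.00110). Epithelial markers, given above beside Cdh1, moved in the same direction as Ocln and Cldn15, and their part in these values was not tested.

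Esam and F11r, of the immunoglobulin-type adhesion molecules, rose, and Jam2 and Jam3 did not pass the test. Esam (an endothelial molecule of tight junctions, chromosome 9, 37528078 to 37538319, plus strand) went from 357, 375 and 345 CPM to 518, 536 and 598 CPM, with a log2 fold change of 0.62 ± 0.075 (edgeR adjusted p = 3.72e-05). F11r (JAM-A, which also takes part in leukocyte passage) went from 136, 147 and 150.2 CPM to 178, 180.0 and 210.0 CPM, with a log2 fold change of 0.39 ± 0.087 (edgeR adjusted p = 0.00204). Neither gene's groups overlapped in CPM. The ratio of Esam to Cdh5 per kilobase was 0.268, 0.335 and 0.267 in controls and 0.317, 0.341 and 0.528 under pressure. Relative to Cdh5 the groups of Esam therefore overlapped, and pressure library 3 stood above the rest. The call of F11r was lost with library totals, where its change was 0.18. Jam2 (JAM-B) stood at 103, 108 and 121 CPM in controls and 119.6, 125 and 117 CPM under pressure. Jam3 (JAM-C, its binding partner) stood at 22.5, 23.3 and 21.9 CPM and at 24.2, 26.4 and 22.9 CPM. Their changes were 0.13 ± 0.083 and 0.12 ± 0.095, with adjusted p of 0.192 and 0.279 in edgeR, and both were negative with library totals (-0.086 and -0.093). Jam3 shares 36.22% of its exonic bases with the antisense gene Gm48796. Per kilobase, Esam held 61.2% of the signal of the 4 genes in controls and 66.1% under pressure, and Jam2 8.93% and 6.88%.

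Of the scaffolds under the tight junction, Cgnl1 fell, and Tjp1, Tjp3 and Cgn did not pass the test. Cgnl1 (paracingulin, which joins junctions to actin and microtubules; chromosome 9, 71626509 to 71771602, minus strand) fell from 174, 154 and 165 CPM to 139, 122 and 102 CPM. The groups did not overlap, and the log2 fold change was -0.44 ± 0.11 (edgeR adjusted p = 0.00398), a call kept in every alternative apart from a 2-fold minimum. Tjp1 (ZO-1) stood at 481, 407 and 477 CPM in controls and 606, 572 and 433 CPM under pressure. As with Cdh5, its pressure library 3 was inside the control range. Its change was 0.24 ± 0.12 with an adjusted p of 0.0957, and without that library it was 0.38 and passed. The ratio of Cgnl1 to Tjp1 per kilobase was 0.360, 0.377 and 0.345 in controls and 0.228, 0.212 and 0.234 under pressure, apart in all libraries. The epithelial scaffolds Cgn (cingulin, 0.437 ± 0.162 and 0.430 ± 0.267 CPM) and Tjp3 (ZO-3, 0.965 ± 0.101 and 0.788 ± 0.227 CPM) were below 1 CPM and did not pass (adjusted p = 0.899 and 0.411).

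**Figure D3:**
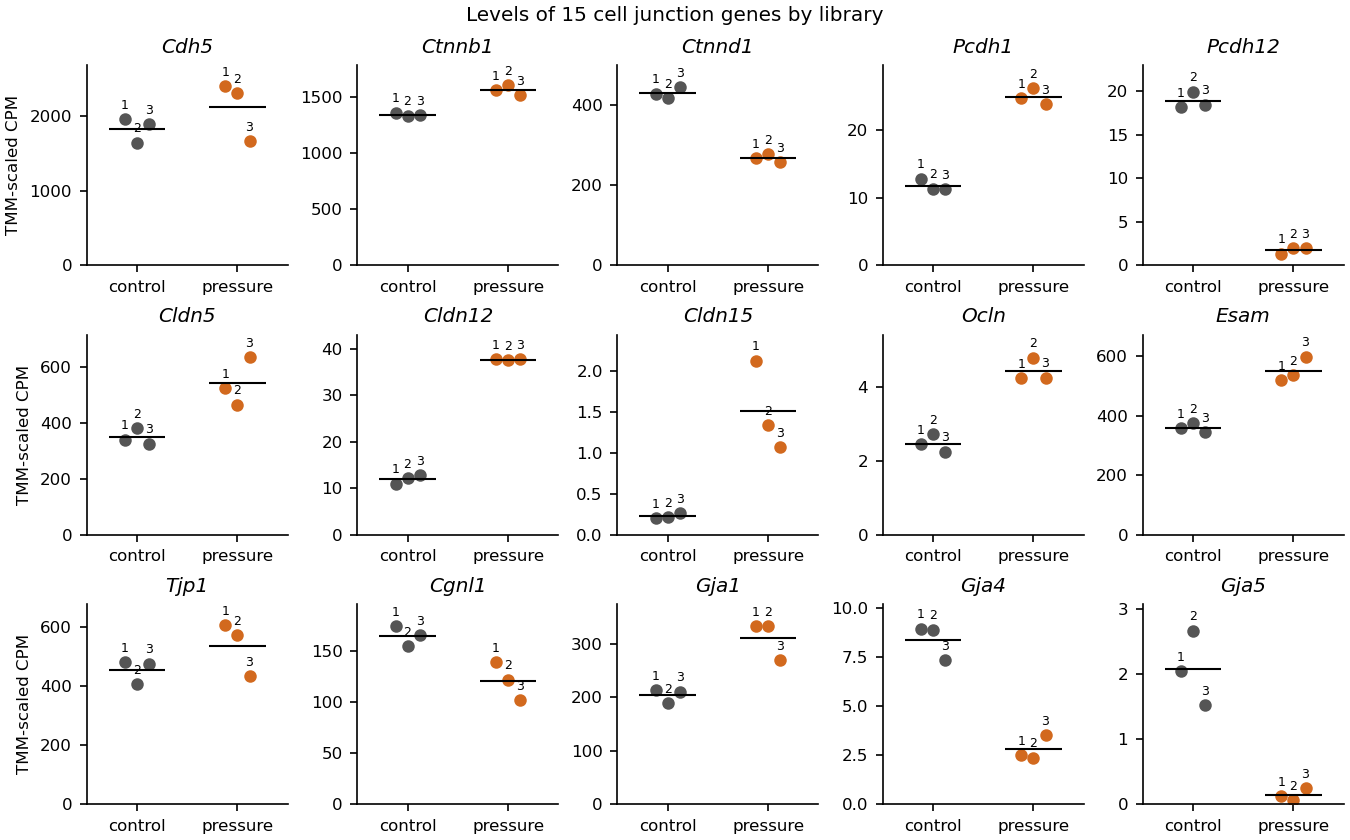
Level of 15 junction genes in each library (vertical axis, TMM-scaled CPM, starting at 0), with points numbered by replicate and a line at each group mean. The points of Pcdh12, Gja4 and Gja5 fall well below their controls, and in Cdh5 and Tjp1 pressure library 3 lies inside the control range.

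Of the 19 connexins, 4 were tested and all 4 were called, beside 68.8% of all genes tested: Gja1 and Gjc1 rose, and Gja4 and Gja5, the pair typical of arteries, fell. Gja1 (connexin 43, chromosome 10, 56377330 to 56402513, plus strand) rose from 213, 188 and 210.4 CPM to 333, 333 and 269.8 CPM, with all pressure libraries above the controls and a log2 fold change of 0.61 ± 0.096 (edgeR adjusted p = 2.09e-04). Gjc1 (connexin 45, chromosome 11, 102799579 to 102819700, minus strand) rose from 3.65, 3.52 and 3.30 CPM to 9.97, 9.85 and 6.96 CPM, a log2 fold change of 1.36 ± 0.17 (edgeR adjusted p = 4.27e-05). Gja4 (connexin 37, chromosome 4, 127311421 to 127314039, minus strand) fell from 8.94, 8.91 and 7.33 CPM to 2.49, 2.37 and 3.52 CPM. No pressure library reached a control, and the fall was 3.06-fold, a log2 fold change of -1.61 ± 0.18 (edgeR adjusted p = 1.88e-05).

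Gja5 (connexin 40, chromosome 3, 96904693 to 97077416, plus strand) fell from 2.05, 2.67 and 1.52 CPM to 0.125, 0.0608 and 0.246 CPM. This was 114 counts over the controls and 6 over the pressure libraries, a ratio of 15.8 with a 95% interval from 7.02 to 43.8 that covers counting error only. It passed the filter on low counts only through the controls. Fitted with every gene that had a count and no filter, its log2 fold change was -3.91 (edgeR adjusted p = 6.55e-07). Gja5 fell while 5 of the 8 genes of the arterial list it belongs to rose (3 with library totals), beside 33.7% of all genes tested. The call and direction of the 4 connexins were the same in every alternative that tested them, apart from a 2-fold minimum, which Gja1 did not reach.

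The make-up of the connexin signal shifted with these changes. Per kilobase of exon, the share of Gja1 was 75.7%, 73.5% and 78.8% in controls and 89.5%, 89.9% and 87.2% under pressure. The share of Gja4 was 19.4%, 21.2% and 16.7% in controls and 4.08%, 3.90% and 6.93% under pressure, and the groups did not overlap for either gene. Gjc1 went from 2.67% to 5.19% and Gja5 from 1.39% to 0.0774%. With 3 libraries against 3, the smallest p of an exact two-sided permutation test is 0.1, so these shares were not tested. The size of the shares depends on the length taken for Gja1, 10257 bases for all annotated exons and 3182 for its principal transcript. With principal transcripts, a choice made after seeing the data, Gja1 went from 89.6% to 94.3% and Gja4 from 6.99% to 1.64%.

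**Figure D4:**
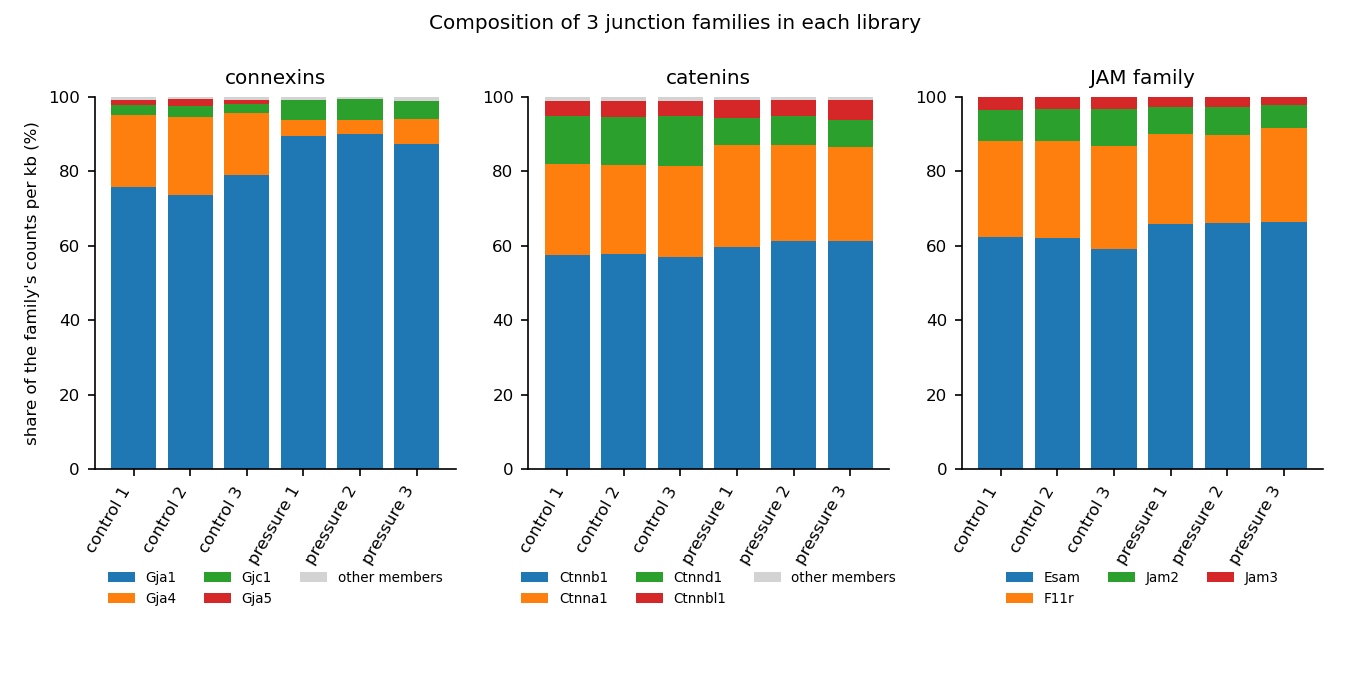
Share of each gene in the summed signal of its family (vertical axis, percent of counts per kilobase of annotated exon), with a stacked bar per library and panels for connexins, catenins and the JAM family. The Gja4 part of the connexin bars and the Ctnnd1 part of the catenin bars are smaller in the 3 pressure libraries than in the 3 controls.

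The bases before the start site are shown for 6 genes, since Gja1 rose while Gja4 and Gja5 fell, and Cldn5, Cldn12 and Cldn15 rose together. They are RefSeq sequences of GRCm38.p6, 5′ to 3′ on the gene's own strand, and end at the base before the start site or before the first annotated exon base. Capitals mark matches, on either strand, to an AP-1 motif (TGACTCA), a TEAD motif (GGAATG), an E-box (CACGTG), a GC box (GGGCGG) or a SOX motif (ACAAAG). The windows are chr10:56377050-56377299 (plus strand) for Gja1, chr4:127314040-127314289 (minus strand) for Gja4, chr3:97032152-97032401 (plus strand) for Gja5, chr16:18776597-18776846 (plus strand) for Cldn5, chr5:5514977-5515226 (minus strand) for the most upstream of the Cldn12 starts, and chr5:136967619-136967843 (plus strand) for Cldn15. The Gja5 and Cldn15 windows lie inside the annotated spans of their genes, which begin at 96904693 and 136966616. They come before start sites within the gene and not before its first annotated base.
Gja1: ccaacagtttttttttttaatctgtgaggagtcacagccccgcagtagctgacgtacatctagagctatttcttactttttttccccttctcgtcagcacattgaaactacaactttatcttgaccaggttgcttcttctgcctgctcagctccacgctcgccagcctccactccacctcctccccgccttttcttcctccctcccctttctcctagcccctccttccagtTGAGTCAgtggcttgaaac
Gja4: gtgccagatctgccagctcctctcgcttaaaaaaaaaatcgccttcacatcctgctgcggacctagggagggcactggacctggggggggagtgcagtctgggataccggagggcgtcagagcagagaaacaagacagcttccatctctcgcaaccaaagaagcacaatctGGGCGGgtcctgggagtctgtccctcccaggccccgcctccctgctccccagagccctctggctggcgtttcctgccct
Gja5: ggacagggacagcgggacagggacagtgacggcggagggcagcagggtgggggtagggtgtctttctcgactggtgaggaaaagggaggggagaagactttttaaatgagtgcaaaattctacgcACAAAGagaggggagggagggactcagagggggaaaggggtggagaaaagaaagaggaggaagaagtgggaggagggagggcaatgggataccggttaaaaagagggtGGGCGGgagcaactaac
Cldn5: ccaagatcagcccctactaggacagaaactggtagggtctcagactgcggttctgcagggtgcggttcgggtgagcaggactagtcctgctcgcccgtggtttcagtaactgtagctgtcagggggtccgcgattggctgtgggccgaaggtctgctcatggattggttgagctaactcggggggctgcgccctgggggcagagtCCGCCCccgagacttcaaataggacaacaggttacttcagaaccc
Cldn12: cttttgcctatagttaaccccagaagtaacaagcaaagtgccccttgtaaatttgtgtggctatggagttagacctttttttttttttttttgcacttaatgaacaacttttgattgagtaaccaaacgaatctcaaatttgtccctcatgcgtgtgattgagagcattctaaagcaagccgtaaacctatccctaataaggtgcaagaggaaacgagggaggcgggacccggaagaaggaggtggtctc
Cldn15: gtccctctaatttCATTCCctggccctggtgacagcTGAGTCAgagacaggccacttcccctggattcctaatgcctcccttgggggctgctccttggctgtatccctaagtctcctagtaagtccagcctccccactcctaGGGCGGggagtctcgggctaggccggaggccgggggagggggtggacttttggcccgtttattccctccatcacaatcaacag

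The Gja1 window holds an AP-1 match near its end, and those of Gja4 and Gja5 a GC box each, with a SOX match in Gja5 as well. Cldn5 has a GC box, Cldn15 has TEAD, AP-1 and GC box matches, and this Cldn12 window has no match. Over the 85 windows of 250 bases that the table gives for 64 of the 95 junction genes, 5.9% held the AP-1 motif, 12.9% the TEAD motif, 3.5% the E-box, 42.4% the GC box and 14.1% the SOX motif. Among all 32851 windows of the same length in the table, the shares were 4.5%, 12.6%, 6.0%, 32.7% and 16.5%. A match is a run of letters and not a measured binding site.

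Most junction genes of other tissues were not seen. The 34 members without a count comprised 16 claudins, 9 connexins, 7 cadherins and 2 catenins, among them the retinal and neuronal connexins Gja10 and Gjd2. A count of 0 allows up to 3 counts per library, which is 0.150 to 0.246 TMM-scaled CPM at these depths. The 27 below the filter had 1 to 43 counts over the 6 libraries, and 18 of them at most 10. The hepatocyte connexins were at this floor: Gjb1 (connexin 32) had 0, 0 and 0 counts in controls and 0, 2 and 2 under pressure, and Gjb2 (connexin 26) had 3, 0 and 1 and then 0, 0 and 1. Cldn1, Cldn2 and Cldn3, claudins of hepatocytes and bile duct cells, had 7, 8 and 12 counts in total. Cdh23 had the most, with 5, 7 and 6 counts in controls and 9, 13 and 3 under pressure. Without the filter, 61 members were tested, and Gjc3 and Cldn22 were added to those that rose (edgeR adjusted p = 0.0446 and 0.0317). Cldn22 had 21.5 counts in total and lies wholly within exons of Wwc2 on the other strand, so the 2 genes cannot be told apart without a strand setting.

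Other genes of the junction pathway were counted by list, and each count is to be read beside the 33.7% of all genes tested that rose and the 35.1% that fell. Among nectins and afadin, an adhesion system of adherens junctions, 3 of 6 tested rose and 1 fell, with a median log2 fold change of 0.31. With library totals, 2 rose and 1 fell, with a median of 0.094. Pvr, the poliovirus receptor and a nectin-like protein, rose from 130.5 ± 8.00 to 334 ± 51.6 CPM, a log2 change of 1.36 ± 0.11 (edgeR adjusted p = 2.37e-06). Pvrl3 (nectin-3) rose by 0.50 on the log2 scale. Afadin itself (Mllt4) rose by 0.54, with groups that overlapped and a call lost with library totals. Pvrl4 (nectin-4), the 1 counted as falling, stood at 1.01 ± 0.112 and 0.528 ± 0.245 CPM. It passed the filter on low counts only through the controls. Its call was lost without pressure library 3 and without that filter. Of the desmosome list, 4 of 11 genes were tested, 2 rose, 1 fell and the median was -0.23. Jup (plakoglobin, a catenin shared by desmosomes and adherens junctions) fell from 36.95 ± 0.824 to 19.9 ± 2.38 CPM, a log2 change of -0.89 ± 0.10 (edgeR adjusted p = 2.70e-05). Pkp4, a p120 relative, rose by 0.43. Dsg2, a desmosomal cadherin, stood at 0.337 ± 0.140 and 1.04 ± 0.217 CPM and, though counted as rising, passed the filter only through the pressure libraries.

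Of the tricellular and other tight junction membrane proteins, 3 of 6 tested rose and 1 fell, with a median of 0.54. Ildr2, an angulin of the contacts where 3 cells meet, had 7, 4 and 7 counts in controls and 71, 75 and 56 under pressure, and it passed the filter only through the pressure libraries. Cldnd1, a claudin-domain protein, rose from 40.8 ± 1.40 to 76.8 ± 5.74 CPM and Cxadr from 0.736 to 1.80 CPM, while Marveld2 (tricellulin) fell from 1.65 to 0.917 CPM, a call lost without pressure library 3. Polarity and scaffold genes moved both ways, with 4 of 16 rising and 4 falling and a median of 0.029 that was -0.19 with library totals, where 2 rose and 5 fell. The angiomotins parted: Amotl2 rose from 72.7 ± 2.79 to 179.8 ± 38.3 CPM, while Amotl1 fell from 269.7 ± 12.3 to 163 ± 7.98 CPM and Amot from 32.4 ± 2.55 to 19.8 ± 4.03 CPM (edgeR adjusted p = 9.70e-06, 1.04e-05 and 0.00119). Pard6g, a member of the PAR polarity complex, rose by 0.76.

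Of the proteins that link junctions to actin, 9 of 15 tested rose and 5 fell (33.7% and 35.1% of all genes), with a median of 0.31. The LIM proteins Ajuba and Zyx rose from 16.8 ± 1.24 to 43.4 ± 0.542 CPM and from 115 ± 5.18 to 241 ± 11.4 CPM, Eps8, an actin regulator, rose from 4.91 to 15.7 CPM, and Sorbs3 (vinexin) fell from 68.0 to 38.2 CPM (edgeR adjusted p between 7.06e-07 and 1.40e-05). With library totals, 6 of the 15 rose and 5 fell. The RAP1 and CCM list covers small G protein signalling that holds endothelial junctions together. Of its 12 genes tested, 5 rose and 6 fell with a median of -0.016, or 4, 6 and -0.23 with library totals. Its exchange factors Rapgef1 and Rapgef2 rose by 0.88 and 1.33, while the effector Rasip1 fell from 228 ± 10.6 to 121 ± 9.63 CPM and the CCM partner Heg1 from 83.7 ± 9.35 to 41.2 ± 2.24 CPM (edgeR adjusted p = 4.16e-06 and 7.24e-06). Among endothelial junction receptors and phosphatases, 4 of 11 rose and 2 fell (4 and 5 with library totals), with a median of -0.030. S1pr1, the sphingosine-1-phosphate receptor known to strengthen endothelial junctions, rose from 410.1 ± 19.5 to 1413 ± 125 CPM, a log2 change of 1.78 ± 0.080 (edgeR adjusted p = 7.85e-08). Icam2, Mcam and Ptprm rose by 0.75, 0.97 and 0.54. Mcam encodes CD146, the protein by which the cells were picked. Of the pannexins, which form channels without junctions, only Panx1 was tested, and it rose by 0.55, which did not pass with library totals.

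Of 13 genes known as targets of beta-catenin in Wnt signalling, 9 were tested. Of these, 7 were called higher and none lower, but 3 of the 7 (Sp5, Tnfrsf19 and Apcdd1) passed the filter on low counts only through the pressure libraries, so the 7 and the median of 0.45 partly follow from the filter. With library totals, 4 rose, namely those 3 and Znrf3, and 1, Tcf7, fell. The calls of Nkd1, Nkd2 and Ccnd1 were lost with library totals and with upper-quartile factors, and that of Nkd1 also without the filter. Sp5, Tnfrsf19 and Apcdd1 are given as counts, because the controls were at or near 0. Tnfrsf19 had 1, 6 and 0 counts in controls and 51, 74 and 65 under pressure, Apcdd1 had 4, 2 and 1 and then 26, 33 and 29, and Sp5 had 0, 2 and 0 and then 26, 25 and 30. Znrf3, a Wnt receptor ligase, rose from 4.69 ± 0.205 to 7.72 ± 0.612 CPM (edgeR adjusted p = 6.43e-04). Among all genes tested, as given above, 33.7% rose and 35.1% fell.

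**Figure D5:**
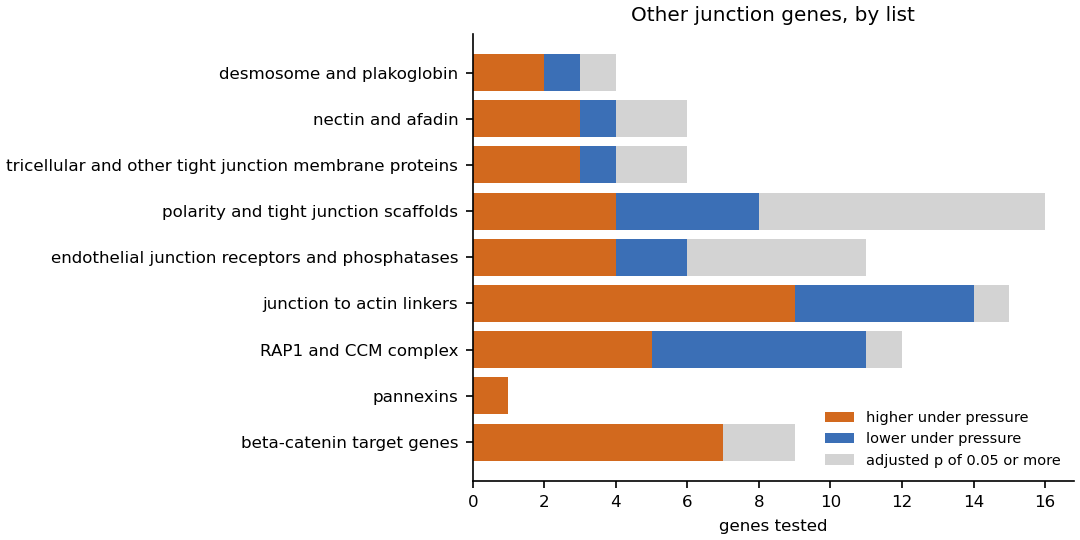
Number of genes tested (horizontal axis) in each of 9 junction pathway lists, split by colour into those higher, lower and not past an adjusted p of 0.05. The beta-catenin target bar has 7 genes higher, of which 3 passed the filter only through the pressure libraries, and the polarity bar has 4 of each.

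Per kilobase of all annotated exons, the junction genes ranked in controls as Cdh5 (436 ± 39.1 CPM per kilobase), Ctnnb1 (258 ± 2.65), Cldn5 (246 ± 20.6), Esam (125 ± 5.40), Ctnna1 (109 ± 2.67), Ctnnd1 (58.9 ± 1.92), Tjp1 (58.2 ± 5.34) and F11r (54.1 ± 2.87). The spreads of Ctnnb1 and Cldn5 overlapped, as did those of Ctnnd1, Tjp1 and F11r, though Ctnnd1 was above F11r in each control library. Under pressure, the order of means was Cdh5 (505 ± 95.9), Cldn5 (382 ± 60.9), Ctnnb1 (300.3 ± 8.70), Esam (192 ± 14.6), Ctnna1 (129 ± 8.46), F11r (71.1 ± 6.72), Tjp1 (68.8 ± 11.8) and Ctnnd1 (36.6 ± 1.42). The spreads of Cdh5 and Cldn5 overlapped, as did those of F11r and Tjp1. Ctnnd1 thus went from a level near that of Tjp1 and slightly above that of F11r to a level below both in every pressure library. The order depends on the length used. With principal transcripts, chosen after seeing the data, Ctnnb1 was above Cldn5 in both groups, at 370.3 ± 3.80 against 246 ± 20.6 CPM per kilobase in controls and 430.3 ± 12.5 against 382 ± 60.9 under pressure, and the latter pair overlapped in spread.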

How the data were processed

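Polyadenylated RNA of 3 control and 3 pressure samples was read as single reads of 101 bases from a stranded kit, per the labels' protocols. TopHat2 2.2.1 and Cufflinks 2.2.1 on the build mm10 are named in the submitters' processing notes. How reads were counted, and whether by strand, is not given in the sources used here. Per gene symbol, the authors deposited expected counts, which are estimates: 18.22% to 21.67% of detected genes in a library had a fraction, and genes with close copies are uncertain.

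Counts were rounded and filtered with filterByExpr (minimum count 10, minimum total 15), which left 12892 genes. The comparison used two-sided quasi-likelihood F-tests in edgeR 4.0.16 (R 4.3.3) with TMM factors and Benjamini-Hochberg adjustment over all genes tested (threshold 0.05). DESeq2 1.42.0, limma-voom 3.58.1, other scalings, filters, a block and leaving out each library were alternatives. Levels are TMM-scaled CPM. Lengths are unions of GENCODE M21 exons (GRCm38). The script was tested on simulated data. The members, the pathway lists and the marker lists were chosen with earlier results of these data known. Values per library are given for members called with at least a 2-fold change and a mean of at least 1 CPM and for a fixed panel. From each pathway list, up to 4 called genes of smallest p are named. Genes given outside these rules (such as Cldn15, Gjb1 and Cdh23) were chosen after their values were seen. A few members are not reported here by name.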

Additional observations from a re-analysis of the deposited data

How the results depend on the processing

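The counts of junction genes called were 16 higher and 7 lower. They were the same with RLE factors, DESeq2, limma-voom and the replicate block. With library totals 10 were called higher and 10 lower, with upper-quartile factors 13 and 8, without a low-count filter 18 and 7 (of 61 tested), with a mean of at least 5 CPM 11 and 5 (of 24), and at an adjusted p of 0.01, 14 and 7. Requiring at least a 2-fold change left 6 higher and 4 lower among the junction genes and 1243 higher and 1763 lower among all genes. Leaving out each library in turn gave 14 to 19 higher and 7 to 7 lower, the 19 without pressure library 3. The call of 22 of the 34 junction genes tested was the same in every alternative that tested them apart from the 2-fold minimum, and no called value changed sign. The cause of the changed calls was not tested. No pairing by sample number was seen: the deviations of same-numbered libraries correlated at 0.1291, -0.2299 and -0.1342, and the second control correlated best with pressure library 3 (0.2918). With 3 libraries per group, these values cannot settle whether same-numbered libraries share a source. The replicate block gave 8384 calls over all genes against 8871 without it. Depth limits the members below 1 CPM.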
